A study of Triticum aestivum with 27 samples.

Results

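The Rht-1 genes of bread wheat encode DELLA proteins, and this is an account of their 3 homoeologues, the copies carried by the A, B and D genomes of this hexaploid species. They were taken by identifier: Rht-A1 is TraesCS4A01G271000 on chromosome 4A, Rht-B1 is TraesCS4B01G043100 on chromosome 4B and Rht-D1 is TraesCS4D01G040400 on chromosome 4D. They are 3 of the 153699 genes in the deposited table, which gives none of them a symbol, and all 3 passed the filter for testing (1 FPKM or more in 3 or more libraries), as 68658 genes did. RNA-seq was done on whole spikes cut at the wax-ripening stage from 3 varieties that differ in resistance to pre-harvest sprouting, the germination of grain on the mother plant in wet weather. Baipimai is a white-grained variety of medium or better resistance, Shengsimai is red-grained and highly resistant, and Zhoumai18 is white-grained and highly susceptible. In all 9 groups the spikes were first soaked, and they were then frozen at once (0 h) or kept in warm, humid air for 48 h or 96 h. Each group had 3 libraries, 27 in all, from separate spikes. No dry spikes enter the comparison, each resistance class with its grain colour is a single variety, and the number in the names of the Baipimai libraries is, in the study's list of varieties as it could be read here, that of another white-grained variety, Baimai (Xichuan), whereas the numbers of the other 2 varieties match that list; the name used here is the one on the sample labels. The dwarfing alleles that the varieties carry at Rht-B1 and Rht-D1 are not given in the sources used here.

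DELLA proteins are nuclear repressors of the response to gibberellin, the hormone that promotes stem growth and germination. When gibberellin binds its receptor GID1, the receptor joins the DELLA protein, an F-box protein marks it for destruction and the genes it held back are released. In the wheat grain this response includes the alpha-amylases that the aleurone layer secretes to break down starch, and abscisic acid acts against it to keep the grain dormant. Mutant alleles of Rht-B1 and Rht-D1 that resist this degradation gave the semi-dwarf wheats, which is where the name, reduced height, comes from. RNA-seq measures the transcript and not the protein, on which gibberellin acts most directly.

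The totals were 45590141 to 55765523 counts per library, and behind each value of a homoeologue stood 2076 to 5717 counts for Rht-A1, 3026 to 9430 counts for Rht-B1 and 1544 to 7412 counts for Rht-D1. Levels are given as CPM, counts set relative to library size after scaling by the TMM method, which brings libraries to the same level over most genes. All 27 libraries were nearest to a library of their own group. TMM factors ran from 0.718 in a Shengsimai library at 0 h to 1.159 in a Baipimai library at 48 h, and the part of all counts held by the top 50 genes had its highest group mean, 26.1%, in Shengsimai at 0 h and its lowest, 7.23%, in Zhoumai18 at 96 h. FPKM, which the authors scaled by gene length and library size, carries no such factor, so small differences that involve the 0 h libraries can differ in direction between CPM and FPKM. Calls that turned are named beside the result, and the other changes stand with the alternatives. Homoeologues are similar enough for reads to be assigned to the wrong copy, so the level of a single copy is less certain than that of their sum.

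All 3 homoeologues were well expressed in the ripening spike. Over the 27 libraries the mean level per length was 31.9 FPKM for Rht-A1, 56.8 FPKM for Rht-B1 and 28.9 FPKM for Rht-D1, above 95.1%, 97.5% and 94.4% of the tested genes in that order, whose median was 2.54 FPKM. The counts that make 1 FPKM differed by under 0.5% between the copies, so their CPM can be set side by side as well. Rht-B1 thus had the highest mean level, and Rht-A1 varied least. The highest of the 9 group means was 1.70 times the lowest for Rht-A1, 2.95 times for Rht-B1 and 3.19 times for Rht-D1. The range of the group means on the log2 scale was wider than that of only 9.2% of tested genes for Rht-A1, of 46.2% for Rht-B1 and of 51.2% for Rht-D1, which are low to middling places among genes of these spikes.

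**Figure D1:**
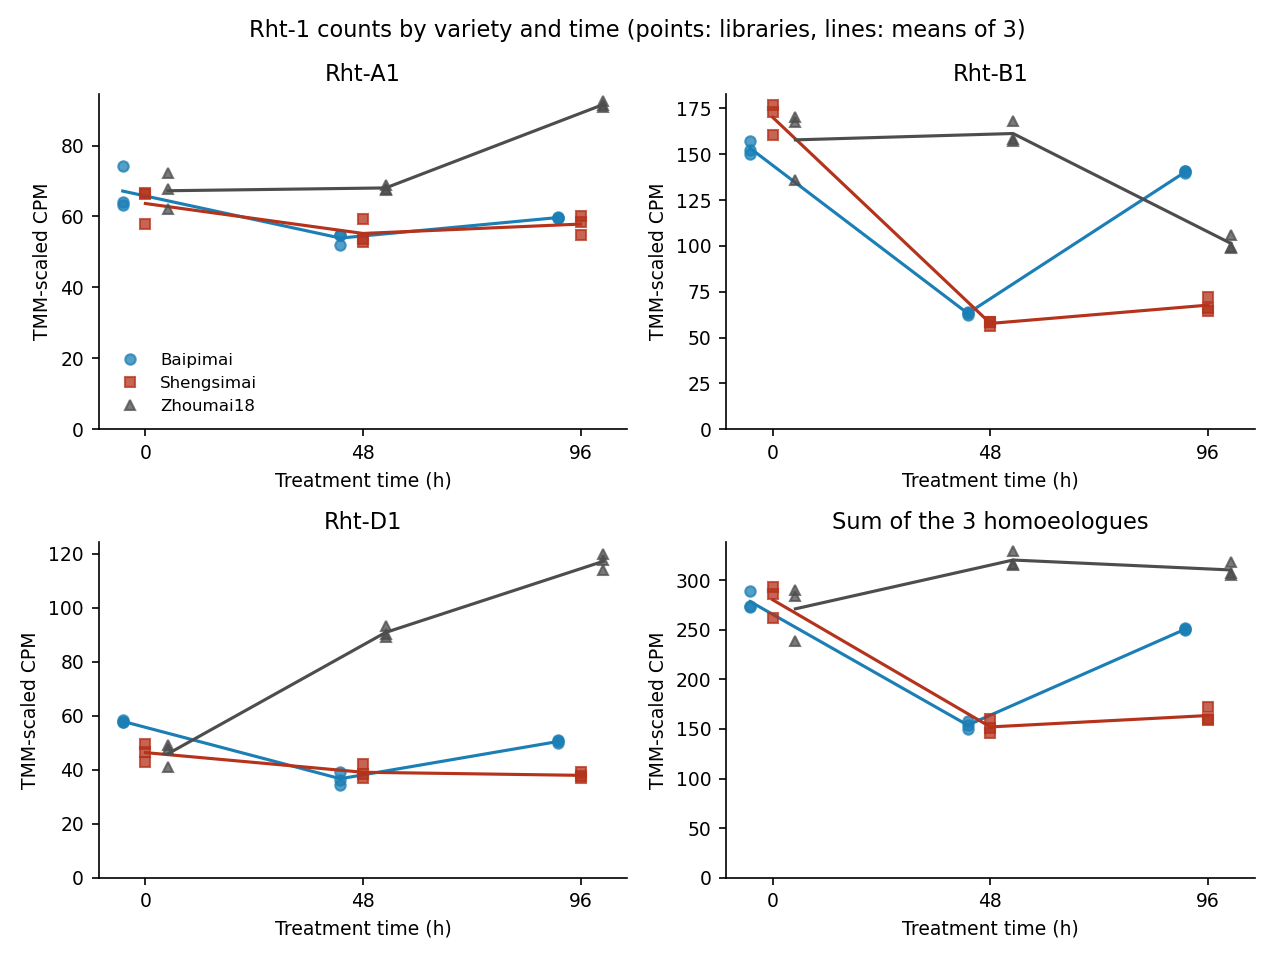
TMM-scaled CPM (vertical axes, each from 0) against treatment time in h for Rht-A1, Rht-B1, Rht-D1 and their summed counts. Points are libraries (3 per group, shifted sideways by variety) and lines join group means. At 48 h both resistant varieties lie below Zhoumai18 in every panel, at 96 h the Rht-B1 level of Baipimai is back near 140.4 CPM, and Rht-D1 reaches 117 CPM in Zhoumai18.

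At 0 h, after soaking alone, the 3 varieties had similar Rht-1 levels in CPM, whereas in FPKM the mean of each copy was lowest in Shengsimai. Rht-A1 had 63.2, 74.2 and 64.0 CPM in Baipimai, 57.9, 66.4 and 66.6 CPM in Shengsimai and 62.0, 72.1 and 67.7 CPM in Zhoumai18. Rht-B1 had 152, 157 and 149.9 CPM in Baipimai, 160.4, 177 and 173 CPM in Shengsimai and 136, 170.3 and 167 CPM in Zhoumai18. In both genes the libraries of each resistant variety overlapped those of Zhoumai18, and the Zhoumai18 library with 136 CPM of Rht-B1 was the lowest of the 9. Every Baipimai library lay below every Shengsimai library in Rht-B1. Rht-D1 had 57.7, 57.7 and 58.5 CPM in Baipimai, 43.1, 49.4 and 46.6 CPM in Shengsimai and 41.2, 47.5 and 49.2 CPM in Zhoumai18. Here all 3 Baipimai libraries stood above the other 6, which overlapped each other.

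Rht-D1 in Baipimai was the only difference that passed the test at 0 h. It averaged 58.0 ± 0.431 CPM in Baipimai and 46.0 ± 4.24 CPM in Zhoumai18 (SD, n = 3 each), a log2 fold change of 0.33 ± 0.067 (SE) with an adjusted p of 0.000122 by edgeR's quasi-likelihood test with Benjamini-Hochberg adjustment. Against Shengsimai, which averaged 46.4 ± 3.19 CPM, the log2 fold change of Baipimai was 0.32 ± 0.067 (adjusted p = 0.000233). In Baipimai against Zhoumai18 1 of the 3 homoeologues was thus called, where 49.2% of all tested genes were, and in Baipimai against Shengsimai 1 of 3, where 47.7% were. For Rht-A1 and Rht-B1 in Baipimai against Zhoumai18 the 95% intervals of the log2 fold change were -0.14 to 0.14 and -0.18 to 0.09. None of the 3 was called in Shengsimai against Zhoumai18, where 58.7% of genes were, with log2 fold changes of -0.08 for Rht-A1, 0.11 for Rht-B1 and 0.01 for Rht-D1. On the FPKM scale, where the libraries of Shengsimai at 0 h sit lower, all 3 were called lower in Shengsimai than in Zhoumai18 in a limma fit of log2(FPKM + 1), at -0.44, -0.26 and -0.34, and Rht-A1 was called higher in Baipimai than in Shengsimai, at 0.31. In that fit 40072 of the 68658 tested genes were called in Shengsimai against Zhoumai18, and only 24.9% of these calls were higher. The median log2 fold change of all tested genes there was -0.16. In Baipimai against Shengsimai 31413 genes were called, 73.3% of them higher.

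At 48 h the Rht-1 transcripts were lower in both resistant varieties than in the susceptible one, most of all Rht-B1 and Rht-D1. Rht-A1 had 54.8, 52.1 and 54.9 CPM in Baipimai, 53.6, 59.2 and 52.8 CPM in Shengsimai and 67.8, 67.5 and 68.8 CPM in Zhoumai18. Rht-B1 had 62.5, 63.3 and 63.8 CPM in Baipimai, 58.7, 58.3 and 56.2 CPM in Shengsimai and 158, 168 and 157 CPM in Zhoumai18. Rht-D1 had 36.4, 34.5 and 39.2 CPM in Baipimai, 38.3, 42.1 and 36.9 CPM in Shengsimai and 90.2, 93.4 and 89.1 CPM in Zhoumai18. For each gene every library of the 2 resistant varieties lay below every library of Zhoumai18, by a wide gap for Rht-B1 and Rht-D1 and a narrower one for Rht-A1.

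All 3 homoeologues were called lower at 48 h in both comparisons with Zhoumai18. In Baipimai the log2 fold change was -1.35 ± 0.068 for Rht-B1 (adjusted p = 5.91e-16), -1.31 ± 0.067 for Rht-D1 (8.46e-16) and -0.34 ± 0.068 for Rht-A1 (0.000138, edgeR's quasi-likelihood test, as for the adjusted p-values of log2 fold changes that follow). Zhoumai18 therefore had 2.55 times the Rht-B1 and 2.48 times the Rht-D1 of Baipimai. Among all tested genes 53.6% were called in this comparison and 25% were called lower. In Shengsimai the log2 fold change was -1.48 ± 0.068 for Rht-B1 (adjusted p = 6.16e-17), -1.22 ± 0.067 for Rht-D1 (2.93e-15) and -0.30 ± 0.068 for Rht-A1 (0.000381). There 62.4% of tested genes were called and 33.3% were called lower. The fall of Rht-B1 lay deep in each distribution, below the fold changes of all but 9.01% of tested genes in Baipimai and 15.4% in Shengsimai. Between Baipimai and Shengsimai none of the 3 was called at 48 h, where 61.7% of tested genes were. The 95% intervals of these log2 differences were -0.17 to 0.11 for Rht-A1, -0.01 to 0.27 for Rht-B1 and -0.23 to 0.05 for Rht-D1, and on the log2(FPKM + 1) scale Rht-B1 was called higher in Baipimai, at 0.28.

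**Figure D2:**
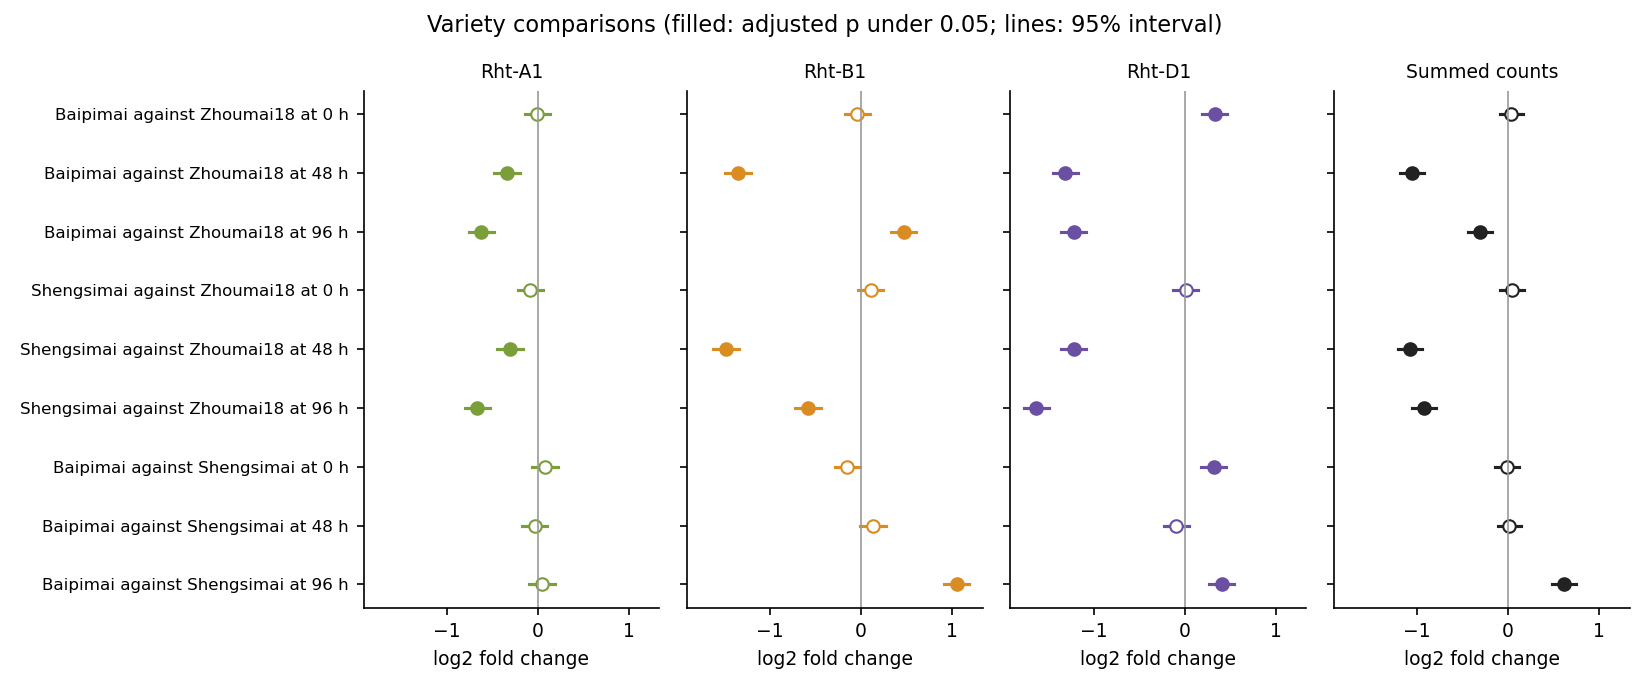
Log2 fold change (horizontal axes) of each homoeologue and of the summed counts in the 9 comparisons between varieties, the variety named first over the one named after it. Lines are 95% intervals and filled points had an adjusted p under 0.05. Points lie near 0 at 0 h apart from Rht-D1 in Baipimai, left of 0 against Zhoumai18 at 48 h, and at 96 h Rht-B1 lies right of 0 in Baipimai against Zhoumai18 while the other homoeologues lie left.

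At 96 h the differences of Baipimai from Zhoumai18 no longer had the same direction in all 3 homoeologues, and the 2 resistant varieties differed from each other in Rht-B1 and Rht-D1. Rht-A1 had 59.8, 59.7 and 59.6 CPM in Baipimai, 54.8, 58.5 and 60.2 CPM in Shengsimai and 92.6, 91.3 and 90.7 CPM in Zhoumai18. Rht-B1 had 140.6, 140.6 and 139.9 CPM in Baipimai, 66.3, 64.6 and 72.2 CPM in Shengsimai and 106, 99.6 and 98.7 CPM in Zhoumai18. Rht-D1 had 50.9, 50.6 and 50.003 CPM in Baipimai, 37.6, 37.1 and 39.2 CPM in Shengsimai and 120.1, 114 and 118 CPM in Zhoumai18. Zhoumai18 was thus highest for Rht-A1 and Rht-D1 in all its libraries, but for Rht-B1 it lay between Baipimai above and Shengsimai below, with no overlap among the 3 varieties.

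Rht-B1 was the exception among the differences from Zhoumai18 at 96 h. In Baipimai it was higher, with a log2 fold change of 0.47 ± 0.067 (adjusted p = 3.32e-07), whereas Rht-D1 was lower by -1.22 ± 0.067 (1.17e-15) and Rht-A1 by -0.62 ± 0.068 (3.56e-09) on the same scale. All 3 were called, beside 82.4% of tested genes. In Shengsimai all 3 were called lower, beside 81.6% of tested genes called and 42.2% called lower. The log2 fold changes there were -1.63 ± 0.067 for Rht-D1 (adjusted p = 2.67e-18), -0.58 ± 0.067 for Rht-B1 (8.25e-09) and -0.66 ± 0.068 for Rht-A1 (9.49e-10). At this time such sizes were common, since 22.2% of tested genes had a lower fold change than Rht-D1 in Shengsimai. Baipimai exceeded Shengsimai in Rht-B1, by 1.05 ± 0.068 on the log2 scale or 2.07 times (adjusted p = 1.31e-13), and in Rht-D1, by 0.41 ± 0.067 (5.35e-06). Rht-A1 did not pass the test between them (log2 fold change 0.05, 95% interval -0.10 to 0.19), so 2 of the 3 homoeologues were called, with 62.7% of tested genes.

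A marker of green tissue also differed between the varieties at 96 h, the time at which the study counted sprouted grains. The whole spikes hold glumes and awns as well as grain. How far the sequenced spikes had sprouted is not given in the sources used here. The 2 deposited rows named LHC Ib-21, a chlorophyll-binding protein of the light-harvesting complex, reached 11.6 to 12.3 CPM and 18.3 to 20.7 CPM in Zhoumai18 at 96 h and were at or under 0.345 CPM in every other library. AMY4, an alpha-amylase gene, was at 6.96 to 7.82 CPM in Baipimai, 6.36 to 6.78 CPM in Shengsimai and 10.7 to 11.02 CPM in Zhoumai18 at 96 h, and the log2 fold changes were -0.56 in Baipimai and -0.71 in Shengsimai against Zhoumai18 (adjusted p = 6.35e-06 and 1.5e-07). The part of tissue composition in the Rht-1 differences was not tested. In bulk spikes a change in the share of a tissue and a change in transcripts per cell cannot be told apart, and no symbol of the table marked the embryo.

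**Figure D3:**
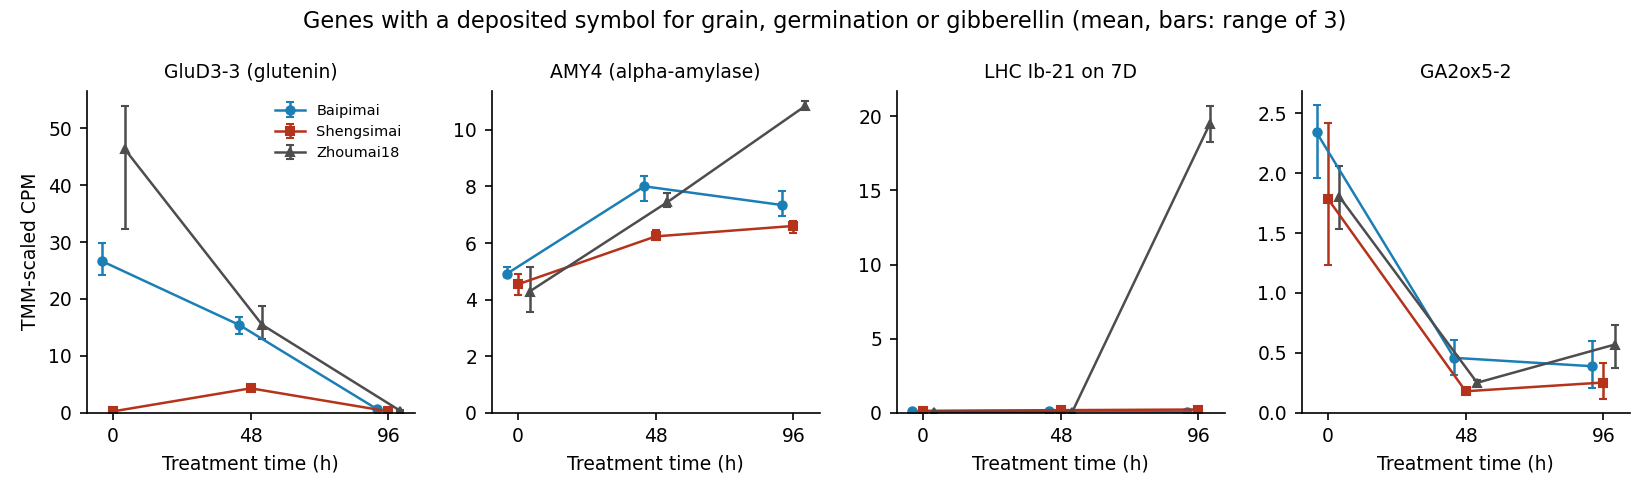
TMM-scaled CPM against treatment time in h for GluD3-3 (an endosperm glutenin), AMY4, the LHC Ib-21 row on chromosome 7D and GA2ox5-2. Points are means of 3 libraries and bars their range. LHC Ib-21 rises above 0.345 CPM only in Zhoumai18 at 96 h, and GA2ox5-2 is highest at 0 h in every variety.

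Along the time courses the homoeologues differed in when they changed. Rht-B1 fell steeply by 48 h in both resistant varieties, to 63.2 ± 0.644 CPM in Baipimai at 48 h, against 153 ± 3.83 CPM at 0 h, and to 57.7 ± 1.31 CPM in Shengsimai at 48 h, against 170.0 ± 8.63 CPM at 0 h (SD, n = 3 each). The log2 fold changes were -1.28 ± 0.068 in Baipimai (adjusted p = 1.28e-15) and -1.56 ± 0.069 in Shengsimai (1.7e-17). In Zhoumai18 Rht-B1 averaged 161 ± 6.13 CPM at 48 h and 158 ± 19.1 CPM at 0 h, a log2 fold change of 0.03 with a 95% interval of -0.11 to 0.17 that did not pass the test. On the log2(FPKM + 1) scale it was called higher there, at 0.30, while the falls in the resistant varieties were still called, at -0.83 in Baipimai and -1.01 in Shengsimai.

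Rht-B1 then took 3 different courses. In Baipimai it rose again to 140.4 ± 0.393 CPM at 96 h, against 63.2 CPM at 48 h, a log2 fold change of 1.15 ± 0.068 (adjusted p = 5.66e-14) that exceeded that of 92.6% of tested genes. That level did not pass the test against 0 h (log2 fold change -0.13, 95% interval -0.26 to 0.01, adjusted p = 0.0913). Its direction against 0 h depended on the setting, since Rht-B1 was called lower with no filter (-0.21, adjusted p = 0.0117) and with the compared groups alone (-0.20, 0.00853), was at 0.12 on log2(FPKM + 1), not called, and was called higher on log2(TPM + 1) (0.23, 0.0126 by limma). In Shengsimai it stayed low, at 67.7 ± 3.99 CPM at 96 h, with a small rise of 0.23 ± 0.068 over 48 h (adjusted p = 0.0134) and a log2 fold change of -1.33 ± 0.068 against 0 h (4.98e-16). The small rise lost its call without 1 library of Shengsimai, replicate 3 at 48 h or replicate 3 at 96 h (adjusted p = 0.0552 and 0.0842). In Zhoumai18 it fell only in the second interval, to 101 ± 3.91 CPM at 96 h, with log2 fold changes of -0.67 ± 0.067 against 48 h (7.44e-10) and -0.64 ± 0.067 against 0 h (1.18e-09).

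Rht-D1 rose throughout in Zhoumai18, the only variety in which both intervals were called higher. It averaged 46.0 CPM at 0 h, 90.9 ± 2.23 CPM at 48 h and 117 ± 3.07 CPM at 96 h, with a log2 fold change of 0.98 ± 0.067 for 48 against 0 h (adjusted p = 2.24e-13), of 0.37 ± 0.065 for 96 against 48 h (1.27e-05) and of 1.35 ± 0.067 over the whole treatment (1.03e-16), 2.55 times. In Baipimai it fell to 36.7 ± 2.32 CPM at 48 h, against 58.0 CPM at 0 h, and was at 50.5 ± 0.447 CPM at 96 h. These were log2 fold changes of -0.66 ± 0.067 for 48 against 0 h (adjusted p = 1e-09), 0.46 ± 0.067 for 96 against 48 h (1.43e-06) and -0.20 ± 0.066 for 96 against 0 h (0.00923). In Shengsimai the differences were small, at -0.25 ± 0.067 for 48 against 0 h (0.00176), -0.04 for 96 against 48 h, which did not pass, and -0.29 ± 0.067 for 96 against 0 h (0.000367). The falls of Rht-D1 against 0 h depended on the scale. That at 48 h in Baipimai was -0.22 on log2(FPKM + 1) and lost its call on log2(TPM + 1) (-0.14, adjusted p = 0.124 by limma). On log2(FPKM + 1) the smaller falls turned to 0.05 in Baipimai at 96 h, not called, and to 0.26 at 48 h and 0.24 at 96 h in Shengsimai, both called. Without replicate 2 of Shengsimai at 0 h the fall there at 48 h also lost its call (-0.16, adjusted p = 0.0547).

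Rht-A1 moved least. In edgeR's fit of all 9 groups its only called rise was in Zhoumai18, to 91.6 ± 0.973 CPM at 96 h, against 68.0 ± 0.704 CPM at 48 h and 67.2 ± 5.08 CPM at 0 h. The log2 fold changes of Rht-A1 there were 0.43 ± 0.068 for 96 against 48 h (adjusted p = 2.45e-06), 0.45 ± 0.068 for 96 against 0 h (1.03e-06) and 0.02 for 48 against 0 h, which did not pass but was called higher on log2(FPKM + 1), at 0.28. At 48 against 0 h it was called lower in Baipimai (-0.32 ± 0.069, 0.000167) and in Shengsimai (-0.21 ± 0.069, 0.00913, with libraries of the 2 times overlapping), and at 96 against 0 h in Baipimai (-0.17 ± 0.069, 0.0288). On log2(FPKM + 1) all 3 of these turned, to 0.11, 0.30 and 0.08, and only the value of Shengsimai was called. On log2(TPM + 1) all 3 were called higher, at 0.20, 0.48 and 0.19 (adjusted p = 0.0412, 2e-05 and 0.0484 by limma). The call at 96 h in Baipimai was also lost without replicate 2 of Baipimai at 0 h, the library with 74.2 CPM (-0.09, adjusted p = 0.255), and without Shengsimai 0 h replicate 2 or 3, Shengsimai 96 h replicate 1 or Baipimai 96 h replicate 2 or 3 (-0.18 to -0.15), and that at 48 h in Shengsimai without its replicate 2 or 3 at 0 h (-0.13 in both, adjusted p = 0.12 and 0.129). The other 3 time comparisons of Rht-A1, 96 against 48 h in Baipimai (0.15) and Shengsimai (0.07) and 96 against 0 h in Shengsimai (-0.14), did not pass. The last of these took either direction with the setting: it was called higher on log2(FPKM + 1), at 0.38 (adjusted p = 8.87e-05 by limma), and lower by DESeq2 (-0.15, adjusted p = 0.0342), with no filter (-0.20, 0.0267) and without Shengsimai 0 h replicate 1 (-0.21, 0.0112). The rise of Rht-A1 from 48 to 96 h in Baipimai, with libraries apart, was called by DESeq2 (0.17, adjusted p = 0.0223). It was also called with the compared groups alone (0.17, 0.0283).

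**Figure D4:**
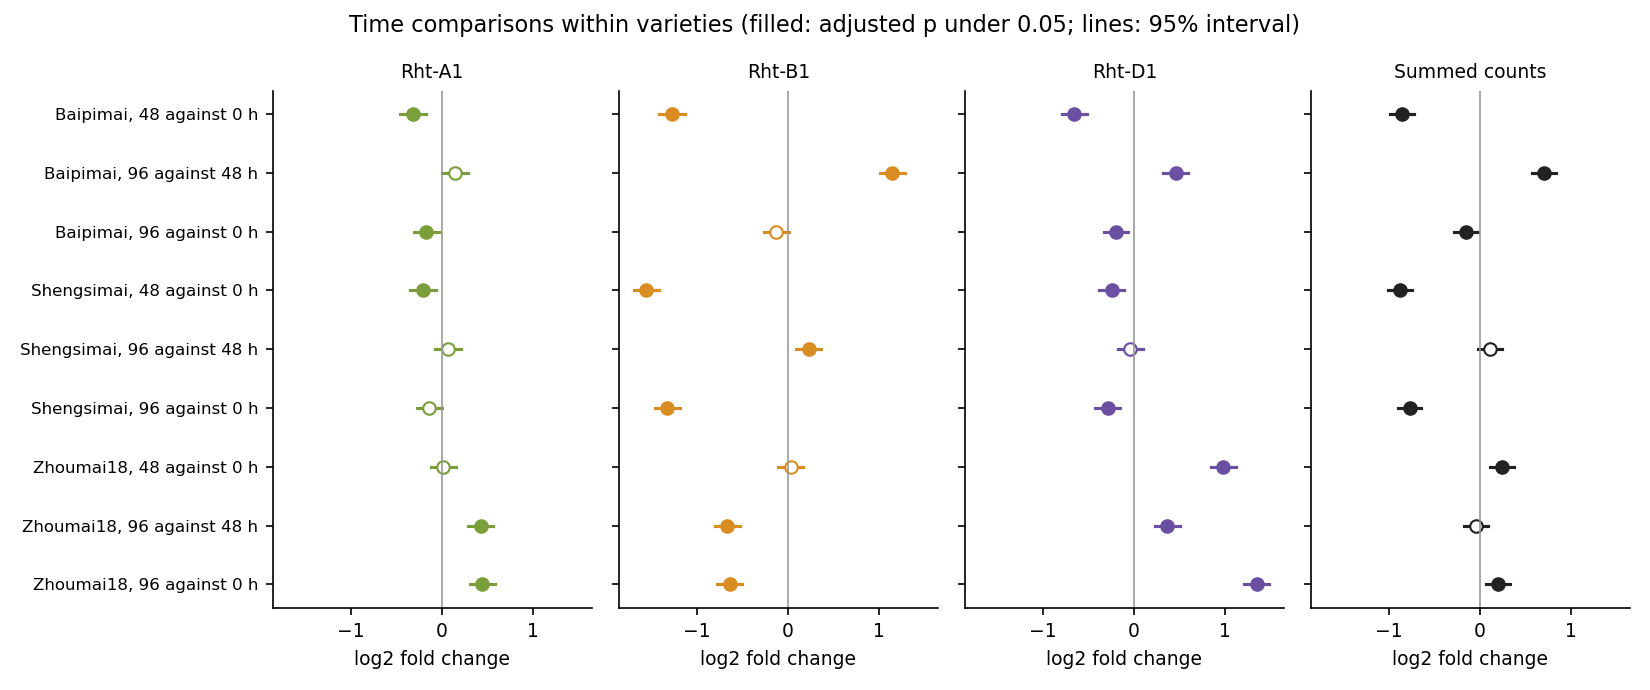
Log2 fold change (horizontal axes) of each homoeologue and of the summed counts in the 9 comparisons of treatment times, the later time over the earlier. Lines are 95% intervals and filled points had an adjusted p under 0.05. Rht-B1 lies near -1.28 and -1.56 at 48 against 0 h in the resistant varieties, and Rht-D1 lies right of 0 in all 3 comparisons of Zhoumai18.

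Counted over homoeologues and times, 20 of 27 time comparisons were called, 8 higher and 12 lower, and on log2(FPKM + 1) 14 higher and 6 lower. Between 21.6% and 82.2% of all tested genes were called in the same time comparisons, so these counts are to be read against that share. No group was held dry for the same times, so the treatment and time alone cannot be told apart. The part of all calls that was higher at 48 against 0 h was 56.7% in Baipimai, 52.1% in Shengsimai and 54.1% in Zhoumai18. On log2(FPKM + 1) it was 73.1%, 70.1% and 64.3% in the same order. For 96 against 48 h in Baipimai it went from 47% to 33.3%. At 48 against 0 h all 3 homoeologues were called lower in Baipimai, where 72.2% of genes were called and 31.3% called lower, and in Shengsimai, where 72.1% were called and 34.5% called lower. In Zhoumai18 1 of 3 was called there, beside 72.9% of genes. At 96 against 48 h 2 of 3 were called in Baipimai (55.8% of genes), 1 in Shengsimai (21.6%) and 3 in Zhoumai18 (74.8%). At 96 against 0 h 2 were called in each resistant variety (70.8% of genes in Baipimai and 72.7% in Shengsimai) and 3 in Zhoumai18 (82.2%). In the comparisons of varieties 16 of 27 were called, 5 higher and 11 lower, beside 47.7% to 82.4% of genes in the 9 comparisons, and on log2(FPKM + 1) 21 were called, 7 higher and 14 lower. On that scale 31136 to 56862 of the 68658 tested genes were called in the 9 comparisons.

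Whether the resistant varieties responded differently from Zhoumai18 was tested directly, as the difference between varieties at a later time minus that at 0 h. Rht-B1 and Rht-D1 differed in all 4 of these tests. At 48 h the log2 value in Baipimai was -1.64 ± 0.094 for Rht-D1 (adjusted p = 4.29e-14), -1.31 ± 0.095 for Rht-B1 (6.06e-12) and -0.33 ± 0.097 for Rht-A1 (0.00609), the last of which was not called on log2(FPKM + 1), at -0.17. All 3 were called lower there, beside 43.2% of tested genes called and 21.1% called lower, and Rht-D1 lay below all but 7.06% of genes. In Shengsimai it was -1.59 ± 0.095 for Rht-B1 (6.88e-14) and -1.23 ± 0.094 for Rht-D1 (1.34e-11), so 2 of 3 were called, beside 49.7% of genes, and Rht-A1 did not pass (-0.22, adjusted p = 0.0585). It was at 0.025 on log2(FPKM + 1), and was called lower with the replicate block (0.0428) and without Baipimai 0 h replicate 2 (0.0404), Zhoumai18 0 h replicate 2 (0.0239) or Shengsimai 48 h replicate 2 (0.026). At 96 h in Baipimai the value was -1.55 ± 0.094 for Rht-D1 (3.16e-14) and -0.62 ± 0.097 for Rht-A1 (2.76e-06), but 0.51 ± 0.094 for Rht-B1 (2.79e-05), the only one of the 12 tests called higher. All 3 were called, beside 66.8% of genes. In Shengsimai at 96 h all 3 were called lower, at -1.64 ± 0.095 for Rht-D1 (1.4e-14), -0.69 ± 0.095 for Rht-B1 (3.54e-07) and -0.58 ± 0.097 for Rht-A1 (6.82e-06), beside 65.2% of genes called and 30.1% called lower. The value of Rht-A1 there was -0.30 on log2(FPKM + 1), still called, and -0.24 on log2(TPM + 1), where it was not (adjusted p = 0.0806 by limma). These 4 comparisons share the 3 Zhoumai18 libraries at 0 h.

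The sum of the 3 homoeologues, which does not depend on how reads were divided among them, was tested in the same fit with 1 row in place of 3. Summed Rht-1 counts were 273, 289 and 272 CPM in Baipimai, 261, 293 and 286 CPM in Shengsimai and 239, 289.9 and 284 CPM in Zhoumai18 at 0 h. At 48 h they were 154, 149.96 and 158 CPM in Baipimai, 151, 159.6 and 146 CPM in Shengsimai and 316, 329 and 315 CPM in Zhoumai18. At 96 h they were 251, 251 and 249.5 CPM in Baipimai, 159, 160.2 and 172 CPM in Shengsimai and 319, 305 and 307 CPM in Zhoumai18. In CPM the sum thus stayed high in Zhoumai18, fell and then rose most of the way to its 0 h level in Baipimai and stayed low in Shengsimai. The changes from 0 h depended on the scale, as given below.

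None of the 3 differences between varieties in the summed Rht-1 counts passed at 0 h (adjusted p = 0.55 to 0.954), although on log2(FPKM + 1) the sum was called lower in Shengsimai than in Zhoumai18, at -0.32, and higher in Baipimai than in Shengsimai, at 0.24. At 48 h the sum did not pass the test between Baipimai and Shengsimai (log2 difference 0.02, 95% interval -0.11 to 0.15, and 0.17 on log2(FPKM + 1), where it was called), and Zhoumai18 had 2.08 times the sum of Baipimai and 2.11 times that of Shengsimai (log2 fold changes of -1.06 and -1.07, adjusted p = 3.75e-14 and 2.03e-14). At 96 h the sum was -0.31 ± 0.064 on the log2 scale in Baipimai against Zhoumai18 (adjusted p = 7.52e-05), -0.92 ± 0.064 in Shengsimai against Zhoumai18 (2.57e-13) and 0.62 ± 0.064 in Baipimai against Shengsimai (2.56e-09). Over time the sum fell by 48 h in Baipimai (-0.86, adjusted p = 2.17e-12) and in Shengsimai (-0.88, 9.65e-13), falls that on log2(FPKM + 1) were -0.42 and -0.36, and on log2(TPM + 1) that of Shengsimai lost its call, at -0.18 (adjusted p = 0.0524). It rose again by 96 h in Baipimai (0.70 against 48 h, 3.85e-10) but not past the test in Shengsimai (0.10, 0.275). In Shengsimai the sum at 96 against 0 h was -0.78 (adjusted p = 1.39e-11). On log2(TPM + 1) that fall lost its call, at -0.094 (adjusted p = 0.306 by limma). In Baipimai the sum at 96 h was still called lower than at 0 h (-0.15, adjusted p = 0.0351), with no overlap of libraries, but it was at 0.10 on log2(FPKM + 1), not called, and was called higher on log2(TPM + 1) (0.21, adjusted p = 0.0221 by limma). In Zhoumai18 it was called slightly higher at 48 h and at 96 h than at 0 h (0.24 and 0.19, adjusted p = 0.00136 and 0.00653). With the compared groups alone neither was called (0.20 and 0.17, adjusted p = 0.0738 and 0.101), and at 96 h the call was also lost with no filter (0.09, 0.252), without replicate 1 of Zhoumai18 at 0 h, at 0.11 (adjusted p = 0.0918), and without replicate 1 of Shengsimai at 0 h, at 0.13 (adjusted p = 0.0607).

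In each library the 3 copies can also be set against each other, a measure that no scaling between libraries touches. Rht-B1 gave the largest share of the summed FPKM in 23 of 27 libraries. At 0 h its share was 55.1% ± 0.678 in Baipimai, 60.7% ± 0.544 in Shengsimai and 58.2% ± 1.13 in Zhoumai18, with 24.1%, 22.8% and 24.9% from Rht-A1 and 20.8%, 16.5% and 16.9% from Rht-D1 (SD, n = 3). At 48 h the share of Rht-B1 was 41.1% ± 0.985 in Baipimai, 38.0% ± 1.31 in Shengsimai and 50.4% ± 0.677 in Zhoumai18. The copy that gained was not the same: Rht-A1 gave 35.1% in Baipimai and 36.4% in Shengsimai but 21.3% in Zhoumai18, where Rht-D1 gave 28.3%. In Shengsimai the Rht-A1 and Rht-B1 shares then overlapped, and in 1 of its libraries Rht-A1 was the largest.

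By 96 h the balance of the copies differed in every variety. Baipimai was back near its 0 h make-up, with 56.0% ± 0.067 from Rht-B1, 23.9% from Rht-A1 and 20.1% from Rht-D1. Shengsimai stayed nearer to that of 48 h, with 41.4% ± 0.95, 35.5% and 23.1%, although its Rht-B1 shares lay above those of 48 h and its Rht-D1 shares below, with no overlap of libraries. In Zhoumai18 Rht-D1 had become the largest copy in all 3 libraries, at 37.7% ± 0.461, before Rht-B1 at 32.7% and Rht-A1 at 29.6%. With 3 libraries against 3, a single time point cannot give a 2-sided exact p under 0.10, so shares were compared over strata by an exact permutation test of 8000 arrangements, 12 tests in all. At 96 against 0 h, within varieties, the Rht-B1 share was lower by a mean of -14.6 percentage points, at 43.4% and 58.0%, and the Rht-A1 and Rht-D1 shares were higher by 5.70 and 8.91 points (exact permutation, adjusted p = 0.015 for each). These means cover varieties that differ, since the share of Baipimai had returned. Averaged over the 3 times, Shengsimai had a higher Rht-A1 share than Zhoumai18, by 6.25 points (exact permutation, adjusted p = 0.0216), and a lower Rht-D1 share, by -5.89 points (0.009). Both means came from 48 and 96 h, since at 0 h the Rht-A1 share was 22.8% in Shengsimai and 24.9% in Zhoumai18 and the Rht-D1 share 16.5% and 16.9%. The Rht-D1 share of Baipimai was -6.10 points from that of Zhoumai18 and did not pass the same exact test (adjusted p = 0.0755, raw p = 0.0378), nor did the 6 other comparisons between varieties.

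**Figure D5:**
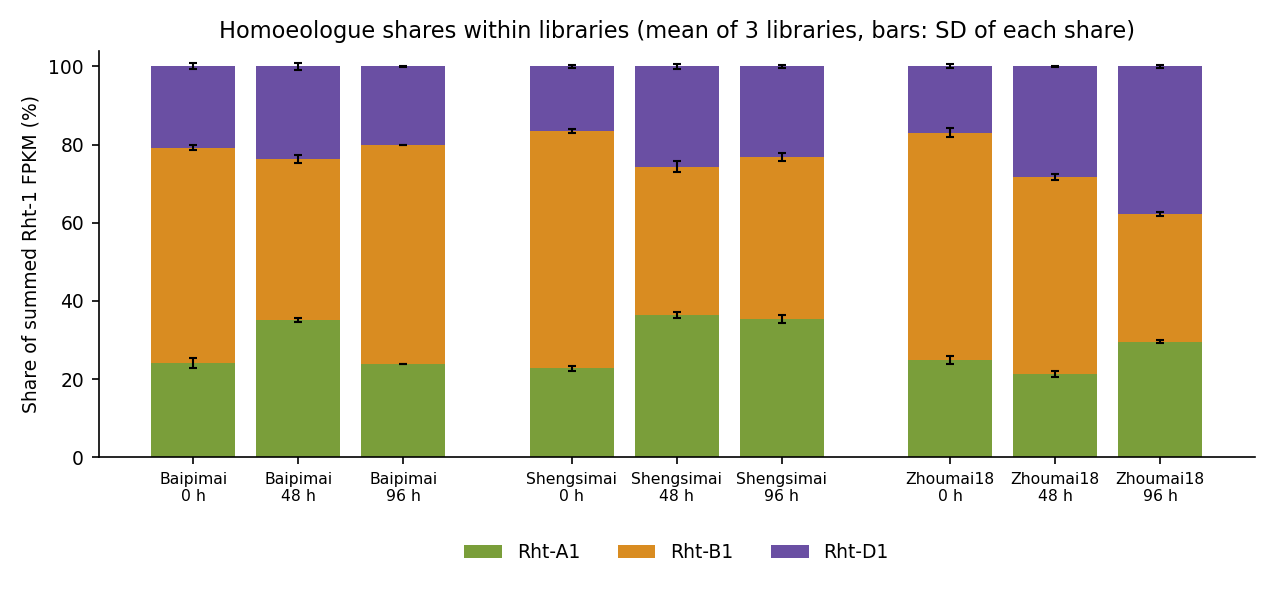
Share of the summed Rht-1 FPKM (%, stacked from 0 to 100) given by Rht-A1, Rht-B1 and Rht-D1 in each of the 9 groups, as means of 3 libraries with the SD of each share at the top of its block. Rht-B1 takes most at 0 h in every variety, and Rht-D1 is the largest block, at 37.7%, only in Zhoumai18 at 96 h.

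Ordered by level, the 9 groups fell differently for each copy. For Rht-D1 Zhoumai18 at 96 h and at 48 h came first, then Baipimai at 0 h and at 96 h, each clear of its neighbour, and the other 5 groups formed a run, from 46.4 to 36.7 CPM, in which each overlapped the next. For Rht-A1 only Zhoumai18 at 96 h stood clear, and each of the 8 others, from 68.0 to 53.9 CPM, overlapped its neighbour. For Rht-B1 the top 4 groups, from 170.0 to 153 CPM, overlapped their neighbours, and from Baipimai at 96 h down to Shengsimai at 48 h the 5 lower groups were all apart from each other. Over the 27 libraries, which share their 9 groups, Pearson's r of log2(CPM + 1) was 0.87 between Rht-A1 and Rht-D1, 0.43 between Rht-A1 and Rht-B1 and 0.42 between Rht-B1 and Rht-D1.

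Other genes with like patterns were sought among 51020 tested genes with a mean of at least 1 FPKM, by Pearson's r over the same 27 libraries, as a description. The 3 closest to Rht-A1 were TraesCS5A01G212500 (r = 0.91), TraesCS4A01G177000 (0.90) and TraesCS6B01G028600 (0.90). Closest to Rht-B1 were TraesCS4B01G022800 (0.95), TraesCS2B01G308000 (0.95) and TraesCS7A01G394900 (0.95). Closest to Rht-D1 were TraesCS3B01G080400 (0.94), TraesCS5B01G110100 (0.94) and TraesCS4B01G235400 (0.93). The table names none of these 9 beyond a locus number. Only 1 gene followed Rht-A1 with an r above 0.9, against 69 for Rht-B1 and 27 for Rht-D1. The group means of Rht-A1 had a log2 range of only 0.75, so differences between replicates can weigh more in its r. Over the 9 group means the closest gene had an r of 0.96 for Rht-A1, 0.97 for Rht-B1 and 0.96 for Rht-D1. Over the 9 group means in place of libraries, 0, 1 and 2 of the 3 closest genes were the same for Rht-A1, Rht-B1 and Rht-D1 in that order.

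Of the rest of the gibberellin pathway, the symbols in the table named only 2 genes, too few for a count over a list. GA2ox5-2 (TraesCS3B01G166100), a gibberellin 2-oxidase of the family that inactivates gibberellins, had 2.34 CPM in Baipimai, 1.79 CPM in Shengsimai and 1.80 CPM in Zhoumai18 at 0 h (means of 3). At 48 h it had 0.459, 0.18 and 0.251 CPM in the same order of varieties, and at 96 h 0.389, 0.253 and 0.57 CPM. The log2 fold changes for 48 against 0 h were -2.35 in Baipimai, -3.29 in Shengsimai and -2.83 in Zhoumai18. For 96 against 48 h they were -0.24, 0.48 and 1.19 in the same order. The mean of GA2ox5-2 over the 27 libraries, 0.711 FPKM, lay under the 1 FPKM of the filter. It may have passed only through the 0 h libraries, where it was highest, so these values are a description and not a test. KAO-D (TraesCS7D01G026000), an ent-kaurenoic acid oxidase on the route to gibberellins, stayed low, between 0.51 and 1.96 CPM on average. Its mean of 0.621 FPKM was also under that of the filter, so its values are likewise a description. The log2 fold changes of KAO-D were 1.94 in Baipimai and -0.78 in Shengsimai for 48 against 0 h. In Zhoumai18 the value was 1.09 for 96 against 0 h. The endosperm row GluD3-3, a low-molecular-weight glutenin, averaged 26.7 CPM in Baipimai, 0.255 CPM in Shengsimai and 46.4 CPM in Zhoumai18 at 0 h, then 15.4, 4.31 and 15.5 CPM at 48 h in the same order of varieties, and was under 1 CPM in all 3 at 96 h.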

How the data were processed

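RNA-seq libraries of polyadenylated RNA were made with a NEBNext Ultra kit from whole spikes, and each spike was a biological replicate. The variety, time and replicate of each sample came from its labels. The authors deposited unnormalized read counts beside FPKM values, which are relative to gene length and library size, in 1 table of 27 libraries with 153699 genes. The aligner, counter and genome build are not given in the sources used here. One malformed line (1 in all) was left out, and a table of resistance classes was not used.

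Genes with at least 1 FPKM in at least 3 libraries were kept. The counts were scaled by TMM and tested with edgeR 4.0.16 (R 4.3.3), glmQLFit and glmQLFTest, in 1 fit of 9 group means over 27 libraries. Benjamini-Hochberg adjustment was done per comparison (22 comparisons) over all 68658 tested genes, with a threshold of 0.05 and no minimum fold change. The SE is the log2 fold change over the square root of F. Such a threshold passes small differences at this depth, with at least 1544 counts behind each value of a homoeologue. Shares were computed from FPKM in each library and compared with an exact permutation test, 2-sided (numpy 2.4.6). The edgeR fit was tried on simulated counts before use, and the permutation test on random normal values.

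The alternatives were DESeq2 1.42.0, limma 3.58.1 on log2(FPKM + 1), log2(FPKM + 0.1) and log2(TPM + 1), no filter, fits restricted to the groups compared, a replicate block, each library left out in turn, shares of raw counts, and likeness over group means. The FPKM and TPM fits of the summed row were added after the data were seen. The members, lists and tests were chosen with earlier results of these data known. Genes were named by rule: the 3 homoeologues, per pathway family the most abundant gene the table names, at most 2 genes per marker list, and the 3 most alike genes per homoeologue. The table's symbols matched 2 pathway genes, under the minimum of 5 set for a count. They matched no embryo row, and 1 of 2 endosperm rows was tested. Pairs of replicates differed by more than sampling noise (chi-square per degree of freedom 2.84 to 11.5).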

Additional observations from a re-analysis of the deposited data

Results flagged for a closer look

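Of the 15 values that follow, each was picked out because a resistant variety and Zhoumai18 changed differently over the treatment in the test of that difference itself (edgeR's quasi-likelihood test, adjusted p from 1.4e-14 to 0.00609). For 48 minus 0 h in Baipimai minus Zhoumai18, the log2 value was -0.33 for Rht-A1, -1.31 for Rht-B1, -1.64 for Rht-D1 and -1.10 for the Rht-1 total. For 96 minus 0 h in the same varieties it was -0.62 for Rht-A1, 0.51 for Rht-B1, -1.55 for Rht-D1 and -0.35 for the Rht-1 total. In Shengsimai minus Zhoumai18 it was -1.59 for Rht-B1, -1.23 for Rht-D1 and -1.12 for the Rht-1 total at 48 minus 0 h, and -0.58 for Rht-A1, -0.69 for Rht-B1, -1.64 for Rht-D1 and -0.97 for the Rht-1 total at 96 minus 0 h. Between 43.2% and 66.8% of all tested genes were called in these comparisons. The TMM factors of the libraries at 0 h also differed between varieties, at 0.860 to 0.880 in Baipimai, 0.718 to 0.742 in Shengsimai and 0.934 to 0.978 in Zhoumai18, and their part in these values was not tested beyond the other scalings given with the results. Groups of 3 libraries were not searched for outliers.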

How the results depend on the processing

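All 16 called differences between varieties for single homoeologues and all 5 for their sum kept their direction and call under every alternative run, as did the 8 called differences in response of Rht-B1 and Rht-D1. The results that changed were comparisons of small size or with 0 h. FPKM and TPM shift the median of all tested genes against TMM-scaled counts, on log2(FPKM + 1) by 0.13 for 48 against 0 h in Baipimai, by 0.20 and 0.18 for 48 and 96 against 0 h in Shengsimai and by -0.16 for Shengsimai against Zhoumai18 at 0 h. Relative to that median, Rht-A1 at 48 against 0 h in Shengsimai was at 0.09 on log2(FPKM + 1), -0.09 on log2(FPKM + 0.1) and -0.22 with TMM scaling.

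On log2(FPKM + 1), log2(FPKM + 0.1) and log2(TPM + 1) in limma, in that order, Shengsimai against Zhoumai18 at 0 h gave -0.44, -0.45 and -0.42 for Rht-A1, -0.26, -0.26 and -0.24 for Rht-B1 and -0.34, -0.36 and -0.33 for Rht-D1, all called. Of the calls over all tested genes in this comparison, only 24.9%, 24.3% and 25.7% were higher. Baipimai against Shengsimai gave 0.31, 0.32 and 0.35 for Rht-A1 at 0 h and 0.28, 0.29 and 0.22 for Rht-B1 at 48 h, all called. For 48 against 0 h Rht-A1 gave 0.11, 0.11 and 0.20 in Baipimai, 0.30, 0.31 and 0.48 in Shengsimai and 0.28, 0.28 and 0.45 in Zhoumai18, Rht-B1 gave 0.30, 0.30 and 0.47 in Zhoumai18 and Rht-D1 gave 0.26, 0.27 and 0.44 in Shengsimai. For 96 against 0 h Rht-A1 gave 0.078, 0.081 and 0.19 in Baipimai and 0.38, 0.40 and 0.53 in Shengsimai, and Rht-D1 gave 0.046, 0.048 and 0.16 in Baipimai and 0.24, 0.25 and 0.38 in Shengsimai. Of these values against 0 h, all those of Shengsimai and Zhoumai18 were called. In Baipimai only those of Rht-A1 on log2(TPM + 1) were called (adjusted p = 0.0412 at 48 h and 0.0484 at 96 h by limma). The difference in response of Rht-A1 between Baipimai and Zhoumai18 at 48 h was not called, at -0.17, -0.17 and -0.25. On log2(TPM + 1) alone Rht-B1 turned to 0.23 for 96 against 0 h in Baipimai, and 3 calls were lost, at -0.14 for Rht-D1 in Baipimai at 48 against 0 h, 0.20 for Rht-B1 in Shengsimai at 96 against 48 h and -0.24 for the response of Rht-A1 in Shengsimai at 96 h. For the Rht-1 total, log2(FPKM + 1) and log2(TPM + 1), chosen after seeing the data, gave -0.32 and -0.30 for Shengsimai against Zhoumai18 and 0.24 and 0.27 for Baipimai against Shengsimai at 0 h, and 0.10 and 0.21 for 96 against 0 h in Baipimai. The first alone called the Rht-1 total higher in Baipimai than in Shengsimai at 48 h (0.17), and the second alone lost its falls in Shengsimai at 48 h (-0.18) and 96 h (-0.094). The scale moved the split of calls over time for the 3 homoeologues to 14 higher and 6 lower on log2(FPKM + 1) and to 16 and 5 on log2(TPM + 1), against 8 and 12. The calls of all tested genes at 48 against 0 h moved as well. The part of them that was higher was 56.7%, 52.1% and 54.1% in Baipimai, Shengsimai and Zhoumai18 with TMM scaling. It was 73.1%, 70.1% and 64.3% on log2(FPKM + 1) and 76.3%, 76.2% and 70.7% on log2(TPM + 1). At 96 against 48 h it went the other way in Baipimai, at 47%, 33.3% and 35.2% on the 3 scales.

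DESeq2 added calls for Rht-B1 in Baipimai against Shengsimai at 0 h (-0.15) and for Rht-A1 at 96 against 48 h in Baipimai (0.17) and at 96 against 0 h in Shengsimai (-0.15). With no filter, Rht-B1 at 96 against 0 h in Baipimai (-0.21) and Rht-A1 at 96 against 0 h in Shengsimai (-0.20) were called, and Rht-B1 at 96 against 48 h in Shengsimai (0.21) and the Rht-1 total at 96 against 0 h in Zhoumai18 (0.088) were not. With the compared groups alone, Rht-A1 at 96 against 48 h in Baipimai (0.17) and Rht-B1 at 96 against 0 h in Baipimai (-0.20) were called, and the Rht-1 total in Zhoumai18 at 48 h (0.20) and 96 h (0.17) against 0 h and the response of Rht-A1 in Baipimai at 48 h (-0.28) were not. The replicate numbers were not shared by pairs in the data (correlations of deviations from -0.207 to 0.303, median -0.004), and the replicate block changed 1 call, that of the response of Rht-A1 in Shengsimai at 48 h (-0.22, adjusted p = 0.0428 against 0.0585 without it). Raw counts in place of FPKM, and leaving out libraries, changed no call on shares.

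Leaving out each library in turn changed 13 results. The values ran from 0.011 to 0.17 for Rht-B1 in Shengsimai against Zhoumai18 at 0 h (called without Zhoumai18 0 h replicate 2, at 0.17), from -0.17 to -0.12 and from 0.082 to 0.15 for Rht-B1 in Baipimai against Shengsimai at 0 and 48 h (called without Zhoumai18 0 h replicate 1, at -0.15 and 0.13), and from -0.19 to -0.10 for Rht-B1 at 96 against 0 h in Baipimai (called without the same library, at -0.13, and without Shengsimai 0 h replicate 1, at -0.19). For Rht-A1 in Baipimai they ran from 0.12 to 0.18 at 96 against 48 h (called without Baipimai 0 h replicate 2, at 0.15, or Shengsimai 0 h replicate 1, at 0.18) and from -0.23 to -0.092 at 96 against 0 h (not called without Baipimai 0 h replicate 2, at -0.092, Shengsimai 0 h replicates 2 and 3 or Shengsimai 96 h replicate 1, each at -0.15, and Baipimai 96 h replicates 2 and 3, at -0.18 and -0.17). In Shengsimai they ran from -0.26 to -0.13 for Rht-A1 and from -0.30 to -0.16 for Rht-D1 at 48 against 0 h (not called without Shengsimai 0 h replicate 2, at -0.13 and -0.16, nor Rht-A1 without replicate 3, at -0.13), from 0.18 to 0.26 for Rht-B1 at 96 against 48 h and from -0.21 to -0.068 for Rht-A1 at 96 against 0 h (called without Shengsimai 0 h replicate 1, at -0.21). The response of Rht-A1 in Shengsimai at 48 h ran from -0.28 to -0.17 (called without Baipimai 0 h replicate 2, at -0.22, Zhoumai18 0 h replicate 2 or Shengsimai 48 h replicate 2, each at -0.28). The Rht-1 total at 96 against 0 h ran from -0.21 to -0.12 in Baipimai, where its call (-0.15, adjusted p = 0.0351) was lost without Baipimai 0 h replicate 2 (-0.12), Shengsimai 0 h replicate 2 or 3 or Shengsimai 96 h replicate 1 (each -0.13) or Baipimai 96 h replicate 1, 2 or 3 (-0.16 to -0.15), and from 0.11 to 0.25 in Zhoumai18. The cause of these changes was not tested. The DESeq2 count of pathway genes was not run, because the list held only 2 genes. Depth did not limit the homoeologues, at 1544 counts or more per library.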
